A study of Mus musculus with 6 samples.

Results

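The genes described here encode the enzymes, transporters and helper proteins of mitochondrial and peroxisomal fatty acid oxidation, 42 genes listed by their known function, in livers of fasted mice with and without Creb3l3. Of the 42 genes, 40 were matched to probes of the array and 32 were detected well enough to be tested, out of 10055 genes tested in all. The expression of Hadha and Acad11 was not analysed here. The 3 knockout (KO) mice were Creb3l3 deficient and the 3 wild-type (WT) mice were their littermates. All 6 were males on the C57BL/6 background kept on normal chow and then fasted for 24 h, so both groups were fasted and no fed group was analysed. The labels do not say which part of Creb3l3 is deleted, or whether it is lost in the liver alone. Each mouse gave 1 liver RNA sample and 1 Illumina WG-6 bead array, so replicates are separate animals, and the number of arrays limits the precision.

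In a fasted liver, fatty acids released from fat tissue are taken up, joined to coenzyme A by acyl-CoA synthetases, and shortened by beta-oxidation. Mitochondria burn most of them after the carnitine shuttle has carried them through the membranes, and feed the acetyl-CoA into ketone bodies, while peroxisomes shorten very long, branched and dicarboxylic chains. Many of these genes are known targets of the nuclear receptor PPARα, encoded by Ppara, which is active in fasting. Creb3l3 encodes CREBH, a membrane-bound transcription factor of the endoplasmic reticulum that is released by fasting and is known to act together with PPARα on several liver genes.

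Creb3l3 itself gave deposited signals (bead intensities in arbitrary units) of 148, 283 and 87.9 in the KO livers and 1201, 949 and 929 in the WT livers. Of the KO arrays only that of replicate 2 was as bright as those of WT, and its value lay below all WT values. After normalization Creb3l3 fell by 2.32 on the log2 scale (SE 0.15, n = 2 KO and 3 WT, adjusted p = 0.00271 in limma's test). The files do not say whether its probe lies in the deleted part. In mean signal, the array of KO replicate 2 (246) was like those of WT (219 to 252), while that of KO replicate 1 was dimmer (149). Deposited signals of KO replicates 1 and 3 therefore cannot be set against WT before normalization. The array of KO replicate 3 was the dimmest (87.3) and was dim throughout. It had 4302 of 45281 probes detected, against 11846 and 15867 on the other KO arrays and 15504 to 16224 on the WT arrays. Over the kept probes, its correlation with each other array was 0.738 to 0.752, while that among the other 5 arrays was 0.966 to 0.992. The median deposited signal of the tested fatty acid oxidation genes was 589, 1776 and 107 on the KO arrays and 1950.3, 1806 and 1635 on the WT arrays. KO replicate 3 was left out of the comparisons below, so that they set 2 KO livers against 3 WT livers, and values with all 6 arrays are given where they differ. Markers of hepatocytes were at like levels on average. Their mean log2 signal over 8 genes was 10.90 and 10.73 in the 2 KO livers and 10.81 to 10.94 in the 3 WT livers. Of the 7 that were tested, 4 were higher and 3 lower in KO. Without overlap, Apob was lower (log2 difference -0.42) and Hnf4a higher (0.17). Markers of Kupffer cells averaged 6.88 and 7.03 in KO and 6.65 to 6.78 in WT. Endothelial markers averaged 7.05 and 7.01 in KO and 6.83 to 6.90 in WT. Neither average overlapped between the groups, although no single marker passed the test. Single markers differed in sign. Of the 6 tested Kupffer markers 5 were higher in KO at their brightest probe, most in Marco (log2 difference 0.95) and Adgre1 (0.69), and C1qa was lower (-0.16). Other tested probes of Adgre1 gave 0.20 and 0.05, with overlap. Csf1r gave 0.00125 at its brightest probe and -0.41, without overlap, at another. A dimmer probe of Clec4f was higher (0.36). Of the 5 tested endothelial markers 4 were higher, most in Lyve1 (0.64), while the brightest, Clec4g, was lower without overlap (-0.42). Over all genes tested, 29.3% did not overlap. The part of these cells in the results below was not tested. At least 3 of the 5 arrays detected 6 of 7 Kupffer, 5 of 6 endothelial, 2 of 5 cholangiocyte and 3 of 5 stellate cell markers, while Cd5l, Kdr, Krt19, Krt7, Epcam and Lrat, from the same lists, were detected on none of the 5. Erythroid markers averaged 9.21 in KO replicate 1, against 9.84 in KO replicate 2 and 9.83 to 9.97 in WT.

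**Figure D1:**
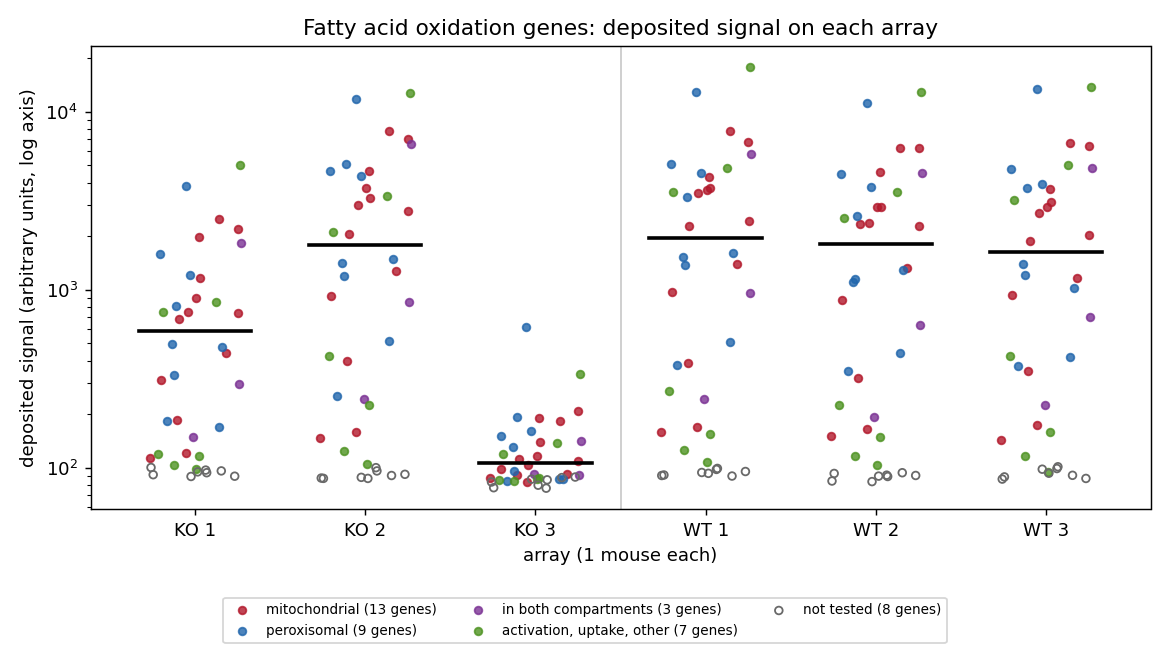
Deposited signals (y axis, arbitrary units on a log scale) of the fatty acid oxidation genes on each of the 6 arrays, KO left of WT. Each filled point is 1 tested gene at its brightest probe, open points are the 8 genes not tested, and bars are the medians over tested genes. On KO replicate 3 the median is 107, close to the open points, against 1635 to 1950.3 on the WT arrays.

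The differences of the fatty acid oxidation genes between KO and WT livers were small. The 2 largest, lower values of 2 acyl-CoA synthetases, did not pass the test, and differences of that size were as frequent among all genes. None of the 32 tested genes changed at an adjusted p under 0.05 in limma's test, 0 higher and 0 lower, and their smallest adjusted p was 0.266. Over all genes tested, 0.338% changed (34 of 10055), 27 lower (0.269%) and 7 higher (0.0696%) in KO. The counts of lower and higher genes are not on equal terms. A gene detected only in the 3 WT livers could be tested, and one detected only in the 2 KO livers could not. Without the adjustment, 2 of the 32 genes (6.25%) had a p under 0.05 with a lower level in KO, Acsl1 and Acsl5, and 0 had one with a higher level, against 7.02% and 4.95% of all genes. The difference between the groups, KO minus WT on the log2 scale, had a median of -0.12 over the 32 genes and -0.01 over all genes. It was below 0 in 22 of the 32 genes (68.75%), against 52.2% of all genes. It lay within 0.5 of 0, which is a change of less than 1.5-fold, in 30 of the 32 genes (93.75%), against 89.5% of all genes. It was below -0.5 in 2 genes (6.25%, Acsl1 and Acsl5), against 6.21% of all genes. In 8 genes (25%) both KO values lay below all 3 WT values, against 15.3% of all genes, and in 0 genes did both lie above, against 14.0% of all genes. The 8 genes were Acadl, Etfdh, Acaa1b, Pex19, Acsl1, Acsl4, Acsl5 and Slc27a2. In Acadl, Etfdh, Acsl4 and Acsl5 a second tested probe had groups that overlapped. With all 6 arrays 0 of the 32 genes passed, as did 0 of 10171 genes tested, of which 3.63% had an unadjusted p under 0.05. The median of the 32 genes was then -0.12 against -0.25 for all genes, with 25 below 0 against 70.2% of all genes. The array measures RNA of whole liver, in which fewer cells of a type and less RNA per cell cannot be told apart.

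**Figure D2:**
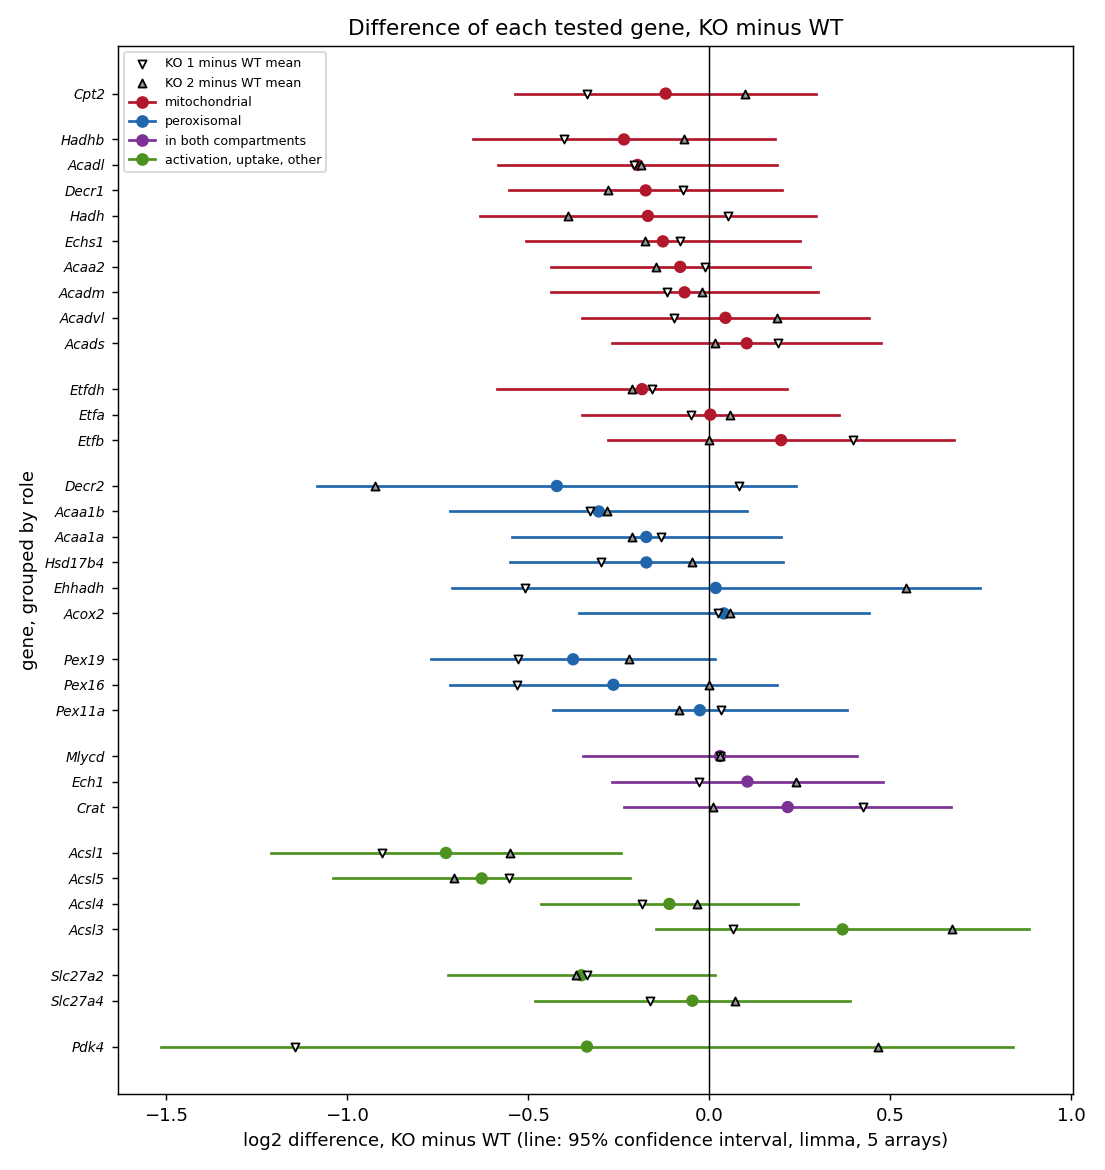
Difference of each of the 32 tested genes (x axis, log2 of KO minus WT), grouped by role from the carnitine shuttle at the top to Pdk4 at the bottom. Circles are the fitted differences, lines their 95% confidence intervals, and triangles the 2 KO livers, each minus the WT mean. Only the intervals of Acsl1 and Acsl5 lie wholly below 0, and neither gene passed the adjusted test.

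Promoter sequences are shown for the 2 genes with the largest differences, Acsl1 and Acsl5, for Acadm and Ehhadh as enzymes of the 2 compartments, and for Fabp1, the only gene with a match to the direct repeat of nuclear receptors. They are the 250 bases before the start of transcription in RefSeq's annotation of assembly GRCm38.p6, written 5′ to 3′ on the strand of the gene, and capitals mark matches to the motifs below.
Acsl1 promoter of the upstream start, chr8:46470787-46471036 (plus strand): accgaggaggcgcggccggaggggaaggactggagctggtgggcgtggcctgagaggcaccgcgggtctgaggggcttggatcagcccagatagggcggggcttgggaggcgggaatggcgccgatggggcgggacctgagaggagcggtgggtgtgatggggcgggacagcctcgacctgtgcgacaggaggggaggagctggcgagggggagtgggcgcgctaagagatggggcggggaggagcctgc
Acsl1 promoter of the downstream start, chr8:46490716-46490965 (plus strand): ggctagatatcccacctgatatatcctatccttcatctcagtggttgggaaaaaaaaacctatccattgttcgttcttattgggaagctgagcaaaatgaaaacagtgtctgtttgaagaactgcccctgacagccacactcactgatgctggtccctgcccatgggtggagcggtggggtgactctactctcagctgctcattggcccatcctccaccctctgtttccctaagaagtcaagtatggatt
Acsl5 promoter, chr19:55253119-55253368 (plus strand): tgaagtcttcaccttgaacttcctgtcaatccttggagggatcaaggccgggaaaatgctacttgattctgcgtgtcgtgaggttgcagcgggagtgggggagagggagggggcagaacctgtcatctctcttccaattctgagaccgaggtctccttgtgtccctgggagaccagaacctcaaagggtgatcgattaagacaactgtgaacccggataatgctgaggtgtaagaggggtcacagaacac
Acadm promoter, chr3:153944644-153944893 (minus strand): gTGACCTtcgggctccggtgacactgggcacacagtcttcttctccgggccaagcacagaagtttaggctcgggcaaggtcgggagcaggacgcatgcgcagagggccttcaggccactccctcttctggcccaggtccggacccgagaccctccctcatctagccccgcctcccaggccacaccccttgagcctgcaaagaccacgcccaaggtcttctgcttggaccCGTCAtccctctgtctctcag
Ehhadh promoter, chr16:21787835-21788084 (minus strand): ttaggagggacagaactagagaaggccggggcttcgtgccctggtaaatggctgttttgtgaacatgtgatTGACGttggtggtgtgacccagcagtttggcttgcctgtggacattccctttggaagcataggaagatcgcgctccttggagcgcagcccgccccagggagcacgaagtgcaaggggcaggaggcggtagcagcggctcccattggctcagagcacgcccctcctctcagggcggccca
Fabp1 promoter, chr6:71199629-71199878 (plus strand): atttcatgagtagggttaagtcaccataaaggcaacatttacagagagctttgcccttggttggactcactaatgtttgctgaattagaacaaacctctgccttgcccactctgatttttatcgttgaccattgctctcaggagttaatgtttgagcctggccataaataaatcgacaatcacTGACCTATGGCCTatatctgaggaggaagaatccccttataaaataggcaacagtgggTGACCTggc
The motifs were searched on both strands in the promoters of the 35 genes that RefSeq's table holds. The direct repeat bound by PPARα and other nuclear receptors, AGGNCANAGGNCA, was found in 1 of the 35 genes (Fabp1, at bases -67 to -55 from the start), against 0.400% of the 27025 genes in the table. Its half-site, AGGTCA, which overlaps the repeat at 1 of its 2 matches in Fabp1, was found in 6 of the 35 genes (Acadm, Acadvl, Cpt1a, Echs1, Fabp1 and Slc27a2), a share of 17.1% against 15.8%. The cAMP response element TGACGTCA, the class of site that CREB-related factors bind, was found in 0 of the 35 genes against 1.77%. Its half-site TGACG, which the full element contains, was found in 8 genes (Acad11, Acadm, Acox2, Acsl4, Ehhadh, Etfa, Etfdh and Ucp2), a share of 22.9% against 19.8%. Neither promoter of Acsl1 nor that of Acsl5 held any of these letters within the 250 bases.

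The 2 largest differences were in 2 of the 4 genes of the activation step, the joining of fatty acids to coenzyme A. Acsl1, the main long-chain acyl-CoA synthetase of liver, had deposited signals of 854, 3380 and 138 in the KO livers (replicates 1 to 3) and 4837, 3560 and 5025 in the WT livers. After normalization its log2 signal was 11.03 and 11.38 in KO and 11.84, 11.72 and 12.23 in WT. Both KO livers lay below every WT liver, and so did the deposited signal of KO replicate 2, whose array was as bright as those of WT. The difference was -0.73 ± 0.21 (SE, n = 2 KO and 3 WT; 95% interval -1.21 to -0.24), so the level in WT was 1.65 times that in KO, with an unadjusted p of 0.00854 and an adjusted p of 0.277. Without KO replicate 2, on the single other KO array, the difference of Acsl1 was -0.90.

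Acsl5, a synthetase found on mitochondria and the endoplasmic reticulum, had deposited signals of 750, 2120.0 and 119 in KO and 3544, 2524 and 3189 in WT. Its normalized log2 signal was 10.84 and 10.68 in KO and 11.37, 11.20 and 11.59 in WT. The 2 groups did not overlap, and the 2 KO livers were 0.15 apart. The difference was -0.63 ± 0.18 (95% interval -1.04 to -0.22), with an unadjusted p of 0.00773 and an adjusted p of 0.266. A second, dimmer probe of Acsl5 gave -0.36, with groups that overlapped. The 2 other synthetases differed from this pattern in size or sign. Acsl4 gave -0.11 (adjusted p = 0.792), and Acsl3 gave 0.37, with 6.30 and 6.90 in KO and 6.02, 6.26 and 6.42 in WT (adjusted p = 0.526). With all 6 arrays the difference of Acsl1 was -0.59 and that of Acsl5 -0.52, both with an adjusted p of 0.653.

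Among genes of uptake, Slc27a2 encodes FATP2, which imports fatty acids and activates very long chains in peroxisomes. Its deposited signals were 5023, 12835 and 338 in KO and 17863, 12988 and 13859 in WT. The normalized values were 13.38 and 13.35 in KO and 13.83, 13.58 and 13.74 in WT, without overlap. The difference was -0.35 ± 0.16 (95% interval -0.72 to 0.02; adjusted p = 0.432), and a second probe gave -0.25, also without overlap. Slc27a4, a related transporter with signals near background on all arrays, gave -0.05.

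**Figure D3:**
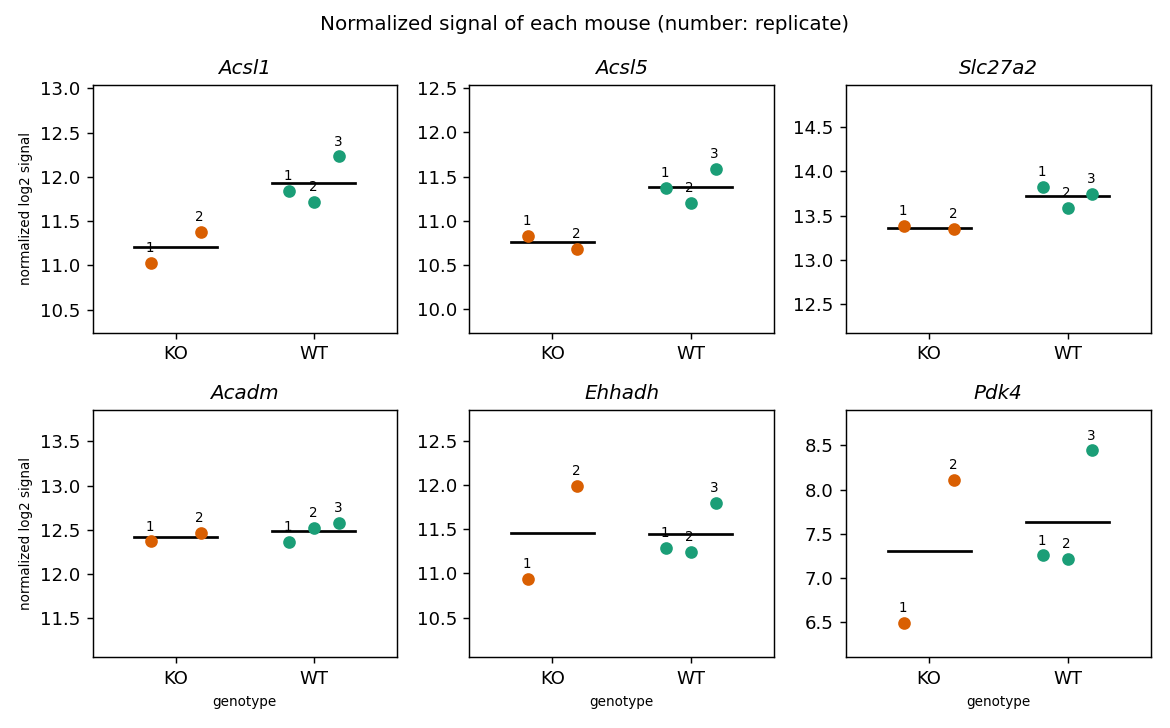
Normalized log2 signals (y axis, each panel spanning the same range) of 6 genes in each liver, KO left of WT. Points are single mice with their replicate number and bars are group means. In Acsl1, Acsl5 and Slc27a2 the 2 KO livers lie below all 3 WT livers, while in Acadm, Ehhadh and Pdk4 the groups overlap.

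The carnitine shuttle and the mitochondrial enzymes showed smaller differences. All 13 tested mitochondrial genes lay within 0.25 of 0, with a median of -0.12 and a range from -0.23 (Hadhb) to 0.20 (Etfb), and 9 of the 13 were below 0. Their smallest adjusted p was 0.613. The lowest 95% bound among them was -0.65 (Hadhb) and the highest 0.68 (Etfb). Cpt2, which releases acyl-CoA from carnitine at the inner membrane, had 11.09 and 11.53 in KO and 11.41, 11.43 and 11.44 in WT. The 2 KO livers thus fell on either side of 3 nearly equal WT livers, and the difference was -0.12 ± 0.18 (adjusted p = 0.806).

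The acyl-CoA dehydrogenases carry out the first step of each cycle, each on a range of chain lengths. Acadm, which takes medium chains, had 12.37 and 12.47 in KO and 12.36, 12.52 and 12.57 in WT. Its groups overlapped almost entirely, at a difference of -0.07 ± 0.16 (95% interval -0.44 to 0.30; adjusted p = 0.881). Acadvl, which takes very long chains, had 10.81 and 11.10 in KO and 10.81, 11.04 and 10.88 in WT, a difference of 0.05 ± 0.17 (adjusted p = 0.933). Acads, which takes short chains, had 8.17 and 8.00 in KO and 7.91, 7.94 and 8.09 in WT, a difference of 0.10 ± 0.16 (adjusted p = 0.81). Acadl, which takes long chains, was the only dehydrogenase of the 4 without overlap, with 9.37 and 9.39 in KO and 9.40, 9.61 and 9.72 in WT, where the nearest KO and WT values were nearly equal. Its difference was -0.20 ± 0.17 (adjusted p = 0.649).

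The later steps gave values of the same size. Hadhb, the thiolase subunit of the trifunctional protein, had 10.84 and 11.18 in KO and 11.36, 11.08 and 11.30 in WT, and KO replicate 2 lay above the lowest WT liver. Its difference was -0.23 ± 0.18 (adjusted p = 0.613). Echs1, the short-chain enoyl-CoA hydratase, had 10.00 and 9.91 in KO and 9.96, 10.23 and 10.06 in WT (-0.13 ± 0.16). Acaa2, the mitochondrial 3-ketoacyl-CoA thiolase, had 11.46 and 11.32 in KO and 11.43, 11.44 and 11.54 in WT, a difference of -0.08 with an adjusted p of 0.854. In each of these the groups overlapped. The hydroxyacyl-CoA dehydrogenase Hadh and the dienoyl-CoA reductase Decr1, both dim, each gave -0.17 (adjusted p 0.754 and 0.684).

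The electron transfer genes, which pass electrons from the dehydrogenases to the respiratory chain, differed in sign. Etfa, a subunit of the electron transfer flavoprotein, had 12.51 and 12.62 in KO and 12.56, 12.51 and 12.62 in WT, so that the groups coincided (0.0037 ± 0.15, adjusted p = 0.994). Etfb, its partner subunit, had 12.23 and 11.83 in KO and 11.65, 12.11 and 11.75 in WT, with overlap (0.20 ± 0.21, adjusted p = 0.717). Etfdh, the dehydrogenase that receives the electrons, had 10.69 and 10.64 in KO and 10.72, 11.07 and 10.76 in WT, without overlap but by a small gap (-0.18 ± 0.17, adjusted p = 0.686).

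The 9 tested peroxisomal genes had a median difference of -0.17, and 7 of the 9 were below 0. They ranged from -0.42 (Decr2) to 0.04 (Acox2), 5 lay within 0.25 of 0, and their smallest adjusted p was 0.431. The median of the peroxisomal genes was lower than that of the mitochondrial genes by 0.05 (-0.17 against -0.12). That gap was mainly in 1 mouse. Relative to the WT mean, KO replicate 1 had a median of -0.30 over peroxisomal and -0.08 over mitochondrial genes, whereas KO replicate 2 had -0.08 and -0.07. The same medians in single WT livers were -0.09, 0.01 and 0.11 for peroxisomal genes and -0.10, 0.04 and 0.05 for mitochondrial genes. KO replicate 2 was thus inside the WT spread for both compartments, and KO replicate 1 outside it for peroxisomal genes. KO replicate 1 was also the liver with the low erythroid markers, whose part in the gap was not tested.

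**Figure D4:**
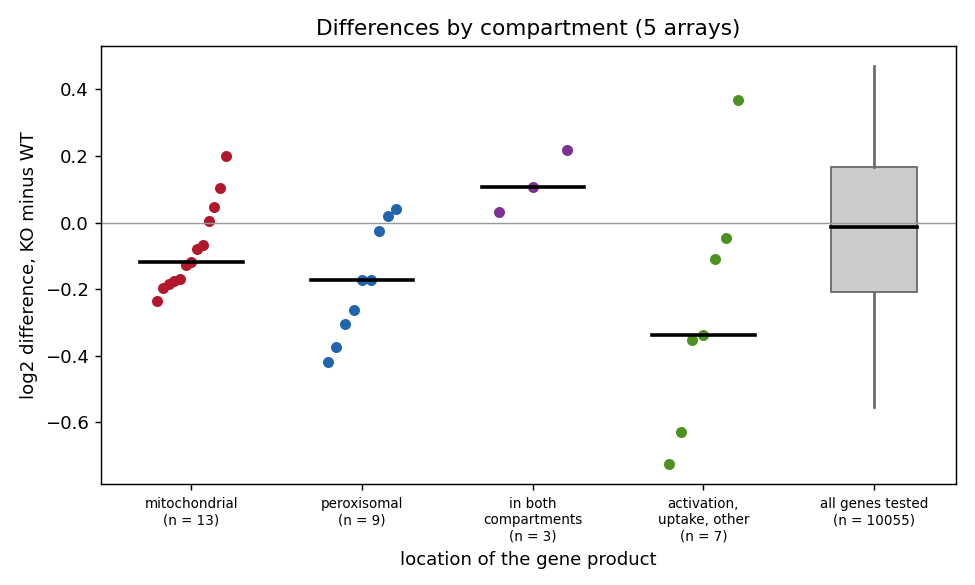
Differences (y axis, log2 of KO minus WT) of the tested genes by where their products work, beside all genes tested. Points are genes and bars are medians. The grey box spans the 25th to 75th percentile of the 10055 genes (-0.21 to 0.17) and the whiskers the 5th to 95th (-0.55 to 0.47).

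Among peroxisomal enzymes, Acaa1b, a 3-ketoacyl-CoA thiolase, had deposited signals of 3830, 11836 and 615 in KO and 12867, 11241 and 13464 in WT. Its normalized values were 13.13 and 13.18 in KO and 13.34, 13.34 and 13.70 in WT, without overlap, although in the deposited signal KO replicate 2 lay above WT replicate 2. The difference was -0.30 ± 0.18 (adjusted p = 0.511). Its close paralog Acaa1a gave -0.17 (adjusted p = 0.683), and the files do not say whether the probes tell the 2 apart.

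Ehhadh, the peroxisomal bifunctional enzyme and a classic PPARα target, varied most between mice among the 9 tested peroxisomal genes of the list. It had 10.94 and 11.99 in KO and 11.29, 11.25 and 11.79 in WT. The 2 KO livers held both the lowest and the highest of the 5 values. The difference was 0.02 ± 0.32, with a 95% interval of -0.71 to 0.75 that leaves room for a change of 1.6-fold in either direction. The other bifunctional enzyme, Hsd17b4, gave -0.17 (adjusted p = 0.687), and Acox2, the oxidase of branched chains and bile acid intermediates, gave 0.04 (adjusted p = 0.939). Decr2, the peroxisomal dienoyl-CoA reductase, had the lowest difference of the peroxisomal genes. Its values were 8.14 and 7.13 in KO and 7.86, 8.10 and 8.20 in WT, so that KO replicate 2 alone was low, and the difference was -0.42 ± 0.29 (adjusted p = 0.568). A second probe of Decr2 was likewise lowest in KO replicate 2, with 7.81 and 6.85 in KO and 7.68, 7.98 and 8.22 in WT.

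Peroxins build and divide the organelle. Pex19, which carries membrane proteins to the peroxisome, had 9.49 and 9.80 in KO and 9.93, 10.04 and 10.10 in WT, without overlap. The difference was -0.38 ± 0.17 (95% interval -0.77 to 0.02; unadjusted p = 0.0582, adjusted p = 0.431), and its second probe gave -0.31. Pex16, which works beside Pex19 in membrane assembly, gave -0.26 (adjusted p = 0.598). Pex11a, a factor of peroxisome division that PPARα agonists induce, had 10.17 and 10.05 in KO and 10.11, 9.96 and 10.34 in WT. Its groups overlapped, with a difference of -0.03 ± 0.18 and an adjusted p of 0.966.

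The 3 tested enzymes found in both compartments all lay above 0, with a median of 0.11. Crat, the carnitine acetyltransferase, had 7.48 and 7.06 in KO and 7.04, 6.87 and 7.24 in WT (0.22 ± 0.20, adjusted p = 0.672), with overlap. Its 3 probes disagreed: the others gave 0.29 and -0.59, and the last, with signals of 91.0 and 101 in KO and 104 to 110.0 in WT, had an adjusted p of 0.314. The dienoyl-CoA isomerase Ech1 gave 0.11 (adjusted p = 0.81) and the malonyl-CoA decarboxylase Mlycd 0.03 (adjusted p = 0.955).

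Pdk4, the kinase that turns off pyruvate dehydrogenase when fat is burned, varied more between mice than any other of the genes. It had 6.50 and 8.11 in KO and 7.26, 7.22 and 8.44 in WT. The groups overlapped widely, and the difference of -0.34 ± 0.51 had a 95% interval of -1.51 to 0.84 (adjusted p = 0.807).

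**Figure D5:**
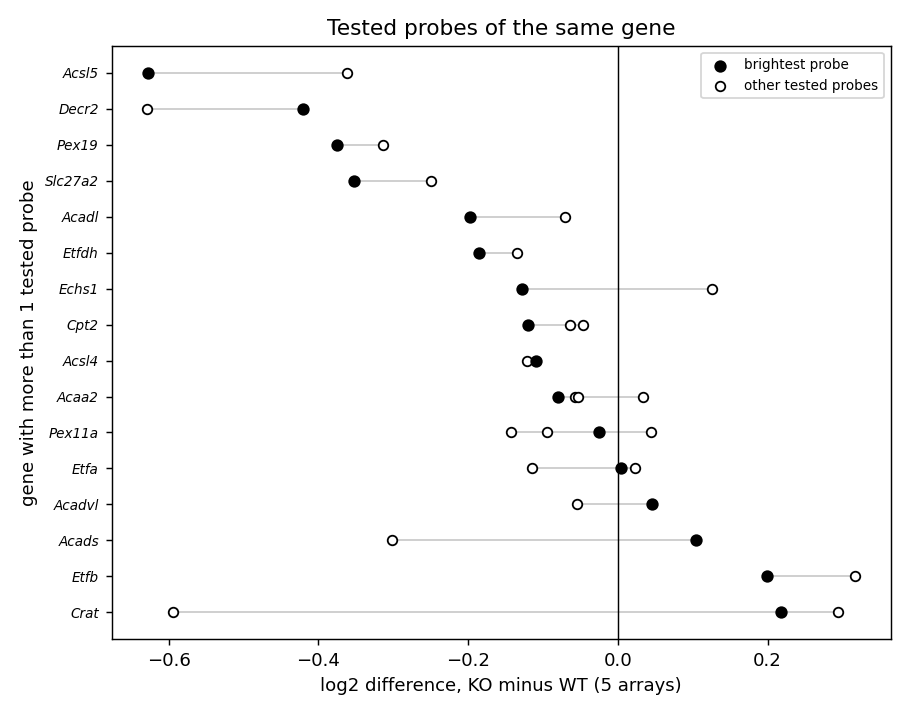
Differences (x axis, log2 of KO minus WT) of all tested probes of the 16 genes with more than 1. Filled circles are the brightest probe, which stands for the gene, and open circles the others. Probes lie within 0.3 of each other in 14 of the 16 genes, and Acads and Crat are the exceptions.

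In 16 genes more than 1 probe was tested, and the probes differed in sign in 7 of them. The span between probes of a gene was at most 0.3 in 14 genes, while it was 0.41 in Acads, whose second probe gave -0.30, and 0.89 in Crat. In these 7 genes (Acadvl, Acads, Echs1, Acaa2, Etfa, Pex11a and Crat) the sign of the difference thus rests on which probe is read.

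For 8 genes the probes were not detected on enough arrays to be tested, with signals of 83.7 to 101 on the 5 arrays, and no level can be given. They include Cpt1a, which loads fatty acids onto carnitine and sets the pace of mitochondrial oxidation. Its brighter probe gave signals of 96.1, 90.5 and 88.1 in the KO livers and 89.9, 93.9 and 90.8 in the WT livers, near background on every array. Fabp1, the abundant fatty acid binding protein of hepatocytes, gave 89.7, 91.9 and 88.7 in KO and 95.3, 90.6 and 87.1 in WT, so its probe did not report the gene in either group. The other 6 were the carnitine octanoyltransferase Crot, the peroxisomal hydroxylase Phyh, the racemase Amacr, the binding protein Fabp2, the carrier Ucp2 and the pantetheinase Vnn1. Crot and Amacr were each detected on 2 of the 5 arrays and 1 probe of Ucp2 on 1.

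Ppara, the gene of the receptor itself, was lower in KO livers. It had deposited signals of 96.0, 103 and 77.5 in the KO livers and 144, 127 and 131 in the WT livers, and was detected on 1 of 3 KO arrays and on all WT arrays. Its normalized log2 signal was 4.42 and 4.72 in KO and 5.85, 5.74 and 5.85 in WT. Both KO livers lay far below the WT livers. Ppara fell by 1.24 on the log2 scale (SE 0.17, adjusted p = 0.0345). Of the 2 KO arrays compared, only 1 detected it, so the KO level was near background and the size of the fall is uncertain. The 3 WT arrays alone were enough for Ppara to be tested, whereas a gene detected only in KO could not be. The difference was below 0 in all 15 alternatives run, at -1.32 to -0.33, and passed the test in 3 of them. With all 6 arrays it was -1.25 (adjusted p = 0.653), and without any 1 of WT replicates 1 to 3 or KO replicate 1 it did not pass (adjusted p up to 0.207). The coactivators Ppargc1a and Ppargc1b gave -0.33 and -0.36, and neither passed the test. The highest of the regulators were Med1 (0.01) and Esrra (-0.02).

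Another 60 genes of the pathway were listed by function, and 54 were tested. Ppara was the 1 gene of the 54 that passed the test at its brightest probe, against 0.338% of all genes, and 0 of the 54 passed as higher. The counts below 0 that follow stand against 52.2% of all genes. The 16 mitochondrial genes of this list had a median difference of -0.22, with 15 below 0, and included Slc25a20, the carnitine carrier of the inner membrane (-0.32, adjusted p = 0.45). Lowest were Acad10 (-0.58) and the dehydrogenase Hsd17b10 (-0.47), and highest the acyl-CoA synthetase Acsm1 (0.16) and Acadsb (-0.03), a dehydrogenase of branched chains. The 26 tested peroxisomal genes had a median of -0.06, with 15 below 0, so the compartments stood in the reverse order of that above. The 5 other tested genes, most of them of uptake and binding, had a median of -0.16, all below 0, from the transporter Slc27a1 (-0.80, adjusted p = 0.253) and the carnitine transporter Slc22a5 (-0.51) to the binding protein Dbi (-0.10) and the isomerase Eci2 (-0.09). At the upper end of the 26 peroxisomal genes were the diphosphatase Nudt19 (0.63, adjusted p = 0.241) and the reductase Pecr (0.61, adjusted p = 0.564). Hacl1, the lyase of alpha-oxidation, gave -0.75 (adjusted p = 0.343).

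Scp2, whose longer product is the peroxisomal thiolase SCPx and whose shorter product is a sterol carrier protein, gave different answers by probe. Its brightest probe had 13.02 and 12.83 in KO and 13.35, 13.42 and 13.51 in WT, a difference of -0.50 that did not pass (adjusted p = 0.323), and a second probe gave -0.42. The remaining probe had 11.18 and 11.20 in KO and 12.57, 12.44 and 12.58 in WT, with deposited signals of 947, 3038 and 174 in the 3 KO livers and 7842, 5927 and 6539 in WT. This probe fell by 1.34 on the log2 scale (SE 0.15, adjusted p = 0.022), 2.53 times higher in WT. It passed in 8 of 15 alternatives, not with all 6 arrays (-1.01, adjusted p = 0.653) or without any 1 WT mouse (adjusted p up to 0.128). It was picked out after its value was seen, and the files do not say which transcript each probe reads.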

How the data were processed

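Liver RNA of 3 KO and 3 WT mice was measured on 6 arrays. The deposited table of each array holds a linear bead intensity per probe and a detection p-value, neither normalized nor background-subtracted by its values, made with BeadStudio 3 per the submitters' processing notes. The authors' value table, also deposited as intensity, was linear and quantile-normalized without centring, with a median of 91.7 in each WT column and 91.7, 91.7 and 91.6 in the KO columns. Against the array tables, its columns of WT replicates 2 and 3 had changed places, and it served as an alternative only.

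Signals were processed with limma 3.58.1 (R 4.3.3) by neqc: normexp background correction, in which the detection p-values stood in for control beads, addition of 16, quantile normalization and log2. Of 45281 probes, 14345 were kept, those detected (p under 0.05) on 3 or more of the 5 arrays. A probe detected only on WT arrays could pass this filter, and one detected only on KO arrays could not. Genotype was fitted with lmFit and eBayes, two-sided, with Benjamini-Hochberg adjustment over all kept probes and calls at an adjusted p under 0.05. A gene was represented by its kept probe with the highest mean signal. Symbols were updated through a GRCm38.p6 gene table: 27740 probes were current, 8037 renamed and 9504 unmatched. The fit was run on simulated data with independent noise and no differences between arrays. That run does not bear on how the fit behaves with the dim arrays here. Figures used matplotlib 3.10.9.

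The genes, lists, tests and the omission of KO replicate 3 were chosen with earlier results of these data known. By rule, values in each array were given for genes that passed, genes without overlap and over 0.5 in size, the smallest p of each role, genes whose probes differ in sign, Ppara, and Cpt1a, Acadm, Ehhadh, Acaa1b, Acsl1, Fabp1, Pdk4 and Pex11a whatever their values. The rule also held Hadha, which was not analysed. Of the other pathway genes, the rule named the 2 highest and 2 lowest of each class, of which 1 is not reported here. Acadl, Etfb, Decr2, Acsl3, Slc25a20 and Scp2 were added after their values were seen. Alternatives were another normalization, background correction, filter, variance model, probe summary, the value table, the replicate block, all 6 arrays, and leaving out each mouse.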

Additional observations from a re-analysis of the deposited data

How the results depend on the processing

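The count of probes past the threshold, 49 with 5 arrays, depended strongly on the settings: it was 83 with cyclic loess, 4 with median scaling, 86 without background correction, 1 without a detection filter, 0 with all 6 arrays, 122 with a trended and robust variance, 32 with array weights and 76 with the authors' value table. It ran from 9 to 2234 when 1 mouse was left out. With all 6 arrays, 369 of 10171 genes (3.63%) had an unadjusted p under 0.05. The fatty acid oxidation genes gave 0 calls under 15 of the 16 alternatives, with smallest adjusted p-values of 0.0945 to 0.845. The exception was the fit without KO replicate 2, which rests on a single KO array. Its calls were not set against the share of all genes in the same fit, and none is read from it. In that fit the difference of Acsl1 was -0.90. Median scaling moved the median of all genes to -0.44, and on that scale the median was -0.76 for the 32 genes, -0.74 for mitochondrial and -0.86 for peroxisomal genes. These medians stayed below 0 in every alternative run. Leaving out 1 mouse gave -0.18 to -0.042 for the 32 genes, -0.13 to -0.066 for mitochondrial and -0.30 to -0.083 for peroxisomal genes. Counting enzymes of both compartments in each gave -0.099 for peroxisomal genes. The difference between compartments ran from -0.21 to -0.017 for these genes. In the second list of pathway genes the order was the reverse, with medians of -0.22 for mitochondrial and -0.06 for peroxisomal genes.

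Acsl1 stayed below 0 in all 16 alternatives (-1.45 to -0.55) and Acsl5 likewise (-1.35 to -0.49). Signs turned in 8 of the named genes. Under median scaling, Acads gave -0.58, Acadvl -0.70, Crat -0.41, Ehhadh -0.71 and Etfa -0.66. With all 6 arrays, Acadvl gave -0.042, Etfa -0.092 and Pex11a 0.42. With the mean of probes, Acads gave -0.10, Acadvl -0.0047, Crat -0.027 and Etfa -0.029. Array weights gave -0.060 for Ehhadh and -0.010 for Etfa. Without 1 mouse, Acadvl ran from -0.10 to 0.19, Cpt2 from -0.34 to 0.10, Ehhadh from -0.50 to 0.54, Etfa from -0.048 to 0.056, Pdk4 from -1.14 to 0.47 and Pex11a from -0.11 to 0.079. The cause was not tested.

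Replicate numbers gave no sign of pairing: same-numbered KO and WT arrays correlated at -0.13 for both numbers. With 2 KO arrays the deviations of 1 mirror those of the other, so these values cannot settle whether the mice were paired. With all 6 arrays the same-numbered correlations were -0.045, -0.048 and 0.037. With the replicate number as a block, 47 probes passed, 0 of the 32 genes did, and their median was -0.11, with -0.09 for mitochondrial and -0.14 for peroxisomal genes. The block turned Pdk4 to 0.065 and Pex11a to 0.077. Fits with a single KO array assume that it varies like the WT arrays. With 2 KO arrays, the standard error had a median of 0.17 over the 32 genes, and differences of that size lie within the error. Dim genes near background, among them Slc27a4, Acsl4 and Ppara, rest on little signal.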
